A study of Drosophila melanogaster with 3 samples.

Results

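The genes described here are 8 transcription factors and cofactors of *Drosophila* blood cells, namely *srp*, *pnr*, *ush*, *zfh1*, *kn*, *lz*, *gcm* and *gcm2*. They were chosen by name, and 7 of the 8 have an entry of their own among the 15185 entries of the deposited table. The entry of *gcm* is shared with the neighbouring gene *CG31709*, so *gcm* has no level of its own. Each of 3 genotypes gave 1 library, made from the RNA of entire male larvae in instar 3. These were the wild-type stock Canton S, *mxcG43* and *mxcmbn1*, the last 2 being alleles of the X-linked gene *multi sex combs* (*mxc*). *mxcG43* is a hypomorphic allele without a tumour phenotype, whereas *mxcmbn1* larvae carry a tumour of the lymph gland, the organ that makes blood cells in the larva. The *mxcmbn1* chromosome also carries an allele of *white*, and a duplication of *mxc* kept in the stock had been removed. The stocks therefore differ in more than *mxc*, and strain background cannot be told apart from the *mxc* allele. *mxcmbn1* larvae can remain in instar 3 longer than controls. The age and the number of the larvae in each library are not given in the sources used here.

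Blood cells of the fly, the haemocytes, comprise phagocytic plasmatocytes, crystal cells that carry the enzymes of melanisation, and lamellocytes that wrap large foreign bodies. The GATA factor Serpent (*srp*) acts at the top of this lineage and works with the cofactor U-shaped (*ush*). Lozenge (*lz*), a Runx factor, directs crystal cells, Gcm and Gcm2 act in plasmatocytes and glia, and Knot (*kn*, also called Collier) is needed for the niche of the lymph gland. All of these genes are also used in other larval tissues, so a level in a whole larva sums over fat body, imaginal discs, nervous system, gonad and blood.

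Levels are in FPKM, the number of sequenced fragments scaled to the exon length of the gene and to the total of mapped fragments. A difference is given as the plain ratio of FPKM. For counts of genes it was taken on the log2 scale after adding 0.1, and a gene was counted as higher or lower when that difference passed 2-fold, among entries with an FPKM of at least 1 in a library. With 1 library per genotype there is no spread between replicates, no test and no p-value, and every difference is one between these libraries. Intervals are 95% Clopper-Pearson intervals on the reads estimated behind a level. They cover counting error only.

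The depth behind the FPKM values was estimated at 11300000 fragments in wild type, 10900000 in *mxcG43* and 15300000 in *mxcmbn1*. The paper reports more sequenced reads than this for wild type and *mxcmbn1*, and the gap was not traced. The mutated gene *mxc* had an FPKM of 1.96, 1.94 and 3.56 in the same order, so that both mutants had the transcript. *white* had 7.25, 5.18 and 0.243, lowest in the stock that carries the *white* allele. Among the gene lists used here, the germline genes of the testis had the lowest median difference. All 12 of them were more than 2-fold lower in *mxcmbn1* than in wild type, where 25.6% of all entries were lower. Their summed FPKM was 1260 in wild type, 902 in *mxcG43* and 30.6 in *mxcmbn1*. *Mst84Dc*, a sperm protein gene with the highest level of the list in wild type, had 300.7, 254 and 2.44.

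In *mxcmbn1*, 5 of the 8 genes, *srp*, *pnr*, *ush*, *zfh1* and *kn*, were between 3.67 and 14.2 times as high as in wild type. These are also the 5 with an entry of their own that passed the minimum FPKM, and all 5 passed 2-fold higher, where 14.9% of the 12238 entries tested were higher and 25.6% lower. *kn* passed the minimum only through the mutant libraries, which favours a difference. The other 4 passed it in every library. When the minimum was asked of wild type alone, 11417 entries remained, of which 11.4% were higher and 26.8% lower, and 4 of 4 factors were higher. The median log2 difference of the 5 genes was 2.69, beside -0.06 over all entries tested. In *mxcG43*, none of the 5 passed 2-fold against wild type in either direction, where 6.57% of entries were higher and 6.62% lower (3.49% and 6.8% with the minimum asked of wild type). Against *mxcG43*, all 5 were higher in *mxcmbn1*, by 3.40 to 9.01 times, where 14.3% of entries were higher and 25.7% lower (12% and 25.4% with the minimum asked of wild type). This comparison and the first share the *mxcmbn1* library and are not independent of each other.

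The order of the levels was the same in each library, with *srp* highest, followed by *zfh1*, *pnr*, *ush*, *kn*, *lz* and *gcm2*. Summed over the 7 genes, the FPKM was 26.9 in wild type, 27.6 in *mxcG43* and 140 in *mxcmbn1*. In *mxcG43*, *zfh1*, *pnr* and *ush* lay close together, between 4.31 and 5.31.

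**Figure D1:**
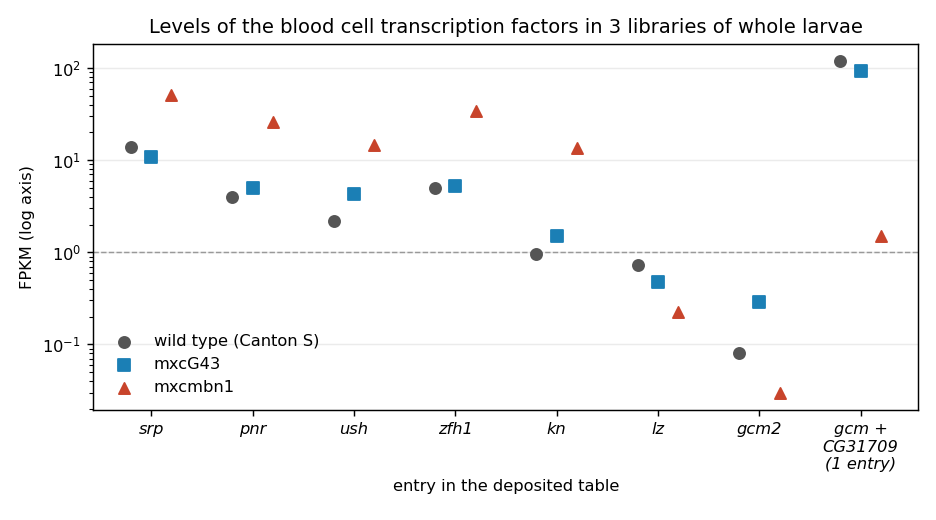
FPKM (log axis) of each entry in the wild-type, *mxcG43* and *mxcmbn1* libraries, 1 point per library, with a dashed line at an FPKM of 1. The *mxcmbn1* point is the highest for *srp*, *pnr*, *ush*, *zfh1* and *kn*, and the lowest for *lz*, *gcm2* and the entry that joins *gcm* with *CG31709*.

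*srp* (XLOC_009721; BDGP5, 3R, 11811923 to 11829803) encodes a GATA zinc finger factor that specifies blood cell precursors and the fat body. The FPKM of *srp* was 14.0 in wild type, 10.7 in *mxcG43* and 51.5 in *mxcmbn1*. It was thus highest in the tumour allele and slightly below wild type in the tumour-free allele. The ratio to wild type was 3.67 in *mxcmbn1* (interval 3.32 to 4.07), the smallest of the 5 genes, and 0.765 in *mxcG43* (interval 0.661 to 0.883). These rest on at least 448, 332 and 2230 estimated reads in wild type, *mxcG43* and *mxcmbn1*. Of the entries tested, 6.27% had a difference at least as large in *mxcmbn1*. Because *srp* is also a gene of the fat body, the markers of that tissue were read beside it. Of 8 fat body genes, 7 were lower in *mxcmbn1* than in wild type by more than 2-fold and none higher, where 25.6% of all entries were lower. Their summed FPKM, mostly larval serum proteins, went from 27537 in wild type to 20632 in *mxcG43* and 9211 in *mxcmbn1*. Single genes did not all follow the sum. In *mxcG43*, *Fbp1* was more than 2-fold higher than in wild type and *Lsp1alpha* lower, where 6.57% of entries were higher and 6.62% lower. *Fbp1* had 1129, 4098 and 111 in wild type, *mxcG43* and *mxcmbn1*. *Lsp1gamma*, the highest of the 8, had 10657 in wild type and 5110 in *mxcmbn1*. The lipoprotein gene *apolpp* was the exception, with 425 in wild type and 347 in *mxcmbn1*. In whole larvae, fewer cells of a type and less RNA per cell cannot be told apart, and this holds for every gene below.

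*pnr*, or *pannier* (XLOC_009723; 3R, 11851819 to 11866639), encodes a second GATA factor, best known in the heart and in the dorsal part of the imaginal discs. Its FPKM was 3.97 in wild type, 4.98 in *mxcG43* and 25.8 in *mxcmbn1*. Only the *mxcmbn1* library stood apart, at 6.49 times wild type (interval 5.36 to 8.01). The ratio of *mxcG43* to wild type was 1.25 (interval 0.976 to 1.63). The genes known to lie downstream of *pnr* or beside it in heart and dorsal disc were read with it. Of 10 such genes past the minimum, none was more than 2-fold higher in *mxcmbn1* and 4 were lower, with a median log2 difference of -0.81. With 14.9% higher and 25.6% lower over all entries tested, these counts are not a result about the list. The proneural genes *ac* and *sc*, targets of Pannier in the dorsal disc, were the lowest of the list. *ac* had an FPKM of 4.34, 6.91 and 0.458 in wild type, *mxcG43* and *mxcmbn1*. *sc* had 3.44, 5.40 and 0.265 and was 13.0 times lower in *mxcmbn1* than in wild type. *Hand*, a factor of heart and lymph gland with the highest level of the list, had 10.5, 9.66 and 10.8 in the same order. *Doc2* had the highest ratio, 1.12. The paper describes reduced growth of the imaginal discs in *mxcmbn1*. The part of this in the levels of disc genes, here and below, was not tested.

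The higher level was not shared by the rest of the GATA family. The fly has 5 GATA factors, and the 3 outside the list, *grn*, *GATAd* and *GATAe*, each lay within 2-fold of wild type in both mutants. *GATAd* had the highest level of these, with an FPKM of 15.02 in wild type, 13.0 in *mxcG43* and 10.8 in *mxcmbn1*. *GATAe*, a factor of the midgut, had 4.25, 3.99 and 6.16. It lies between *srp* and *pnr*, which are 22.0 kb apart on 3R.

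*ush*, or *u-shaped* (XLOC_000037; 2L, 476220 to 540560), encodes a zinc finger protein of the Friend of GATA type, which binds Serpent and Pannier and restrains crystal cell and lamellocyte formation. Its FPKM was 2.19 in wild type, 4.31 in *mxcG43* and 14.6 in *mxcmbn1*. Here the *mxcG43* library lay between the others. *ush* was 6.69 times wild type in *mxcmbn1* (interval 5.46 to 8.37) and 1.97 times in *mxcG43* (interval 1.54 to 2.55), the value nearest to 2-fold of the 5 genes in that comparison. After rescaling by the upper quartile it passed 2-fold in *mxcG43*, and the other 4 did not. The ratio of *mxcmbn1* to *mxcG43* was 3.40 (interval 2.90 to 3.996), the smallest of the 5. Its locus is listed together with that of *cbt*, which had an FPKM of 34.2, 41.2 and 27.6 in wild type, *mxcG43* and *mxcmbn1*. *CtBP*, which encodes a corepressor, had 49.7, 52.8 and 86.1.

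*zfh1* (XLOC_010687; 3R, 26591648 to 26614205) encodes a zinc finger and homeodomain factor of blood cell precursors, muscle precursors and somatic cells of the gonad. Its FPKM was 4.95 in wild type, 5.31 in *mxcG43* and 34.0 in *mxcmbn1*. Wild type and *mxcG43* were close, with a ratio of 1.07 (interval 0.871 to 1.32), and *mxcmbn1* was 6.88 times wild type (interval 5.92 to 8.05). *zfh2*, a factor of neurons and wing disc with a like name, had 6.84, 6.01 and 2.55 and was 2.68 times lower in *mxcmbn1* than in wild type. The list of somatic gonad and muscle, in which *zfh2* was also placed, had 6 genes past the minimum. None was more than 2-fold higher in *mxcmbn1*, and *eya* and *zfh2* were lower. With 14.9% of all entries higher and 25.6% lower, these counts are not a result about the list. *Act57B*, a muscle actin with the highest level of the list, had 2150, 2220 and 1892. *Mef2*, a muscle factor, had the highest ratio, 1.09. *tj*, a marker of somatic gonad cells, lay under the minimum, with 4, 28 and 13 recovered reads.

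*kn* (XLOC_005112; 2R, 10660152 to 10694566) encodes an EBF factor that marks the posterior signalling centre, the niche of the lymph gland, and also acts in wing disc and neurons. It had the largest ratio of the 7 genes with an entry of their own. Its FPKM was 0.956 in wild type, 1.503 in *mxcG43* and 13.5 in *mxcmbn1*. The low levels rest on at least 29 and 44 estimated reads, and the *mxcmbn1* level on at least 563. The ratio to wild type was 14.2 in *mxcmbn1* (interval 9.86 to 21.6) and 1.57 in *mxcG43* (interval 0.957 to 2.59), and 2.52% of entries tested had a difference at least as large in *mxcmbn1*. Other genes tied to the niche were mixed. *Pvf1*, from the list of niche and progenitor signals, had 3.12, 5.19 and 7.31, at 2.34 times wild type in *mxcmbn1*. *Antp* and *hh* lay within 2-fold of wild type in both mutants. *Antp*, which also marks the niche, had 5.47, 5.17 and 8.80. *hh*, the signal that the niche sends to blood cell progenitors, had 2.33, 4.30 and 2.11. Of 7 wing disc genes, *bs* alone was more than 2-fold higher in *mxcmbn1*, at 2.24 times, and *rn* was lower. Beside 14.9% of all entries higher and 25.6% lower, these counts are not a result about the list. *ap*, the highest in level, had 11.5, 12.3 and 10.4.

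Set against each other, the counting intervals in *mxcmbn1* placed the 5 genes at 3 levels. The interval of *srp* ended below those of *pnr*, *ush* and *zfh1*, which overlapped, and that of *kn* began above all of them. The intervals do not hold the spread between larvae or libraries, which was not measured.

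**Figure D2:**
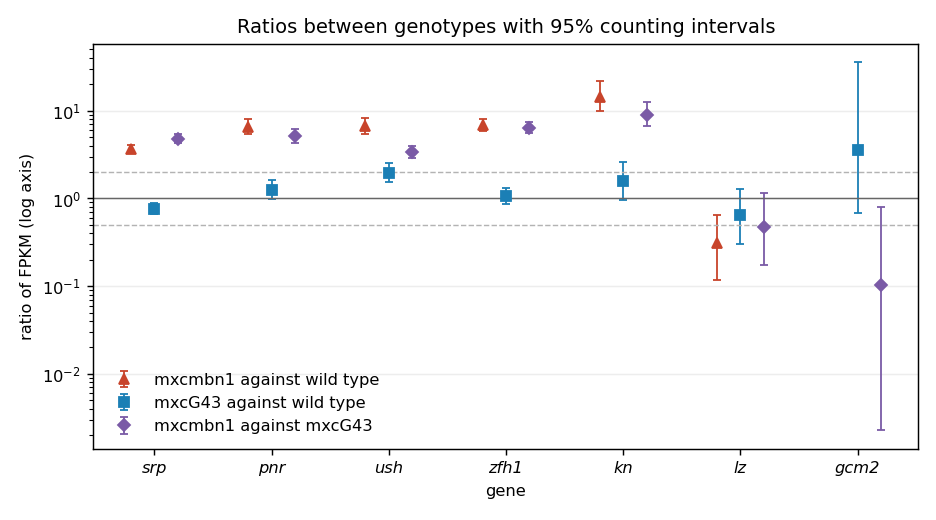
Ratio of FPKM (log axis) for each gene with an entry of its own, in *mxcmbn1* against wild type, *mxcG43* against wild type and *mxcmbn1* against *mxcG43*. Bars are 95% counting intervals, which leave out the spread between replicates, and dashed lines mark 2-fold. *kn* has the highest ratio, 14.2, and the bars of *gcm2* span more than those of any other gene. *gcm2* has no point in *mxcmbn1* against wild type, with 1 and 2 reads.

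*lz* (XLOC_013284; X, 9178682 to 9197669) had its lowest level in *mxcmbn1*, on few reads. Lozenge directs crystal cells and also patterns the eye. Its FPKM was 0.732 in wild type, 0.472 in *mxcG43* and 0.225 in *mxcmbn1*, under the minimum of 1 in every library, on at least 23, 14 and 9 estimated reads. The level in *mxcmbn1* was 0.308 times wild type (interval 0.118 to 0.648), and that in *mxcG43* 0.645 times (interval 0.299 to 1.27). With no minimum, 22.9% of all entries were more than 2-fold lower in *mxcmbn1* than in wild type. With an added 1 in place of 0.1, the log2 difference of *lz* in *mxcmbn1* moved from -1.36 to -0.50, inside 2-fold. The other Runx factor genes were also low. *run* had 7, 13 and 6 recovered reads in wild type, *mxcG43* and *mxcmbn1*, while *Bro*, which encodes a partner of the Runx factors, had 0, 1 and 1. *Bgb*, the other partner gene, was expressed throughout, with an FPKM of 12.1, 9.31 and 9.43.

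Crystal cell genes did not follow *lz*. *PPO1* and *PPO2*, the prophenoloxidases of crystal cells, are known to depend on Lozenge. *PPO1* had an FPKM of 77.7 in wild type, 36.6 in *mxcG43* and 214 in *mxcmbn1*. *PPO2* had 43.5, 26.0 and 228. Both were thus lowest in *mxcG43* and highest in *mxcmbn1*, where *lz* was lowest. Of 5 crystal cell markers, 4 were more than 2-fold higher in *mxcmbn1* than in wild type and none lower. The shares over all entries were 14.9% and 25.6%. The exception, *peb*, had 3.13, 2.60 and 3.77. One of the 4, *CG5418*, passed the minimum only through *mxcmbn1* and had 3 recovered reads in wild type. *N*, the receptor whose signal turns on *lz* in blood cells, had 4.87, 6.70 and 3.41, and its ligand gene *Ser* had 2.27, 3.12 and 1.92.

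The entry that joins *gcm* with *CG31709* (XLOC_002113; 2L, 9578536 to 9581742) stood at 121 FPKM in wild type, 92.2 in *mxcG43* and 1.52 in *mxcmbn1*, where it was 79.2 times lower than in wild type. No part of this can be given to *gcm*. In the BDGP6 annotation the genes lie on the same strand and share 141 bases, and Cufflinks put their reads into 1 value. *gcm2* (XLOC_000655; 2L, 9608479 to 9612706), its paralog 26.7 kb away, could be read at the level of single reads. It had 2 recovered reads in wild type, 7 in *mxcG43* and 1 in *mxcmbn1*. With 2 and 1 reads, wild type and *mxcmbn1* could not be compared. The ratio of *mxcG43* to wild type was 3.61 (interval 0.687 to 35.6), a difference not detectable at this depth. The ratio of *mxcmbn1* to *mxcG43* was 0.102 (interval 0.00227 to 0.795).

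Genes known as targets of Gcm in glia were read beside these entries. *repo*, the glial homeodomain factor, had 23, 48 and 58 recovered reads, an FPKM of 0.729, 1.57 and 1.36. *loco*, a regulator of G protein signalling, had 6.99, 9.998 and 20.9. *ttk*, a repressor of neuronal genes, had 11.97, 16.7 and 26.5. *pnt*, an ETS factor, had 6.18, 6.73 and 39.5. All of them were higher in *mxcmbn1* than in wild type, *repo* at 1.86 times and the others past 2-fold. They were also higher in *mxcG43* than in wild type, *repo* at 2.15 times and the others at 1.09 to 1.43 times. Most glial genes were higher in *mxcmbn1*, but not all. Of 8 genes in the list, which includes these targets, 5 were more than 2-fold higher in *mxcmbn1* and none lower. The median log2 difference was 1.08. Over all entries, 14.9% were higher and 25.6% lower. *moody* was at 6.84 times wild type, and *drpr* was read from an entry shared with *Oseg4*. Neither *nrv2* (43.4, 47.3 and 38.2) nor *Gs2* (155, 386 and 116) passed 2-fold in *mxcmbn1*.

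Most plasmatocyte markers moved with the 5 higher factors. Against wild type, 14.9% of all entries were more than 2-fold higher in *mxcmbn1* and 25.6% lower. Of 10 plasmatocyte markers, 9 were more than 2-fold higher in *mxcmbn1* than in wild type and none lower, with a median log2 difference of 2.53. Their summed FPKM was 227 in wild type, 231 in *mxcG43* and 1343 in *mxcmbn1*, a ratio of 5.92 in *mxcmbn1*. *He*, a haemocyte marker with the highest level summed over the libraries, had 46.0, 34.0 and 398. *NimC1*, a phagocytic receptor, had the highest ratio, with 3.28, 10.5 and 112. The exception was *crq*, a scavenger receptor, with 60.8, 75.8 and 95.1. No plasmatocyte marker was at 0 in any library. Beside the ratio of 5.92 for the sum, *pnr*, *ush* and *zfh1* had ratios of 6.49, 6.69 and 6.88, *srp* had 3.67 and *kn* had 14.2. Lamellocyte markers were mixed, with 3 of 5 more than 2-fold higher in *mxcmbn1* and none lower. *ItgaPS4*, an integrin subunit, had 0.424, 0.465 and 16.6. It and *PPO3* passed the minimum only through *mxcmbn1*, which favours a difference. *cher*, the highest in level, had 88.8, 140 and 105, and *atilla* had 20.9, 9.12 and 29.3, both within 2-fold of wild type in *mxcmbn1*. In *mxcG43*, 1 of the 10 plasmatocyte markers, *NimC1*, was more than 2-fold higher than in wild type and none lower. The shares over all entries were 6.57% and 6.62% in that comparison. The part of blood cell number in the levels of the factors was not tested.

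**Figure D3:**
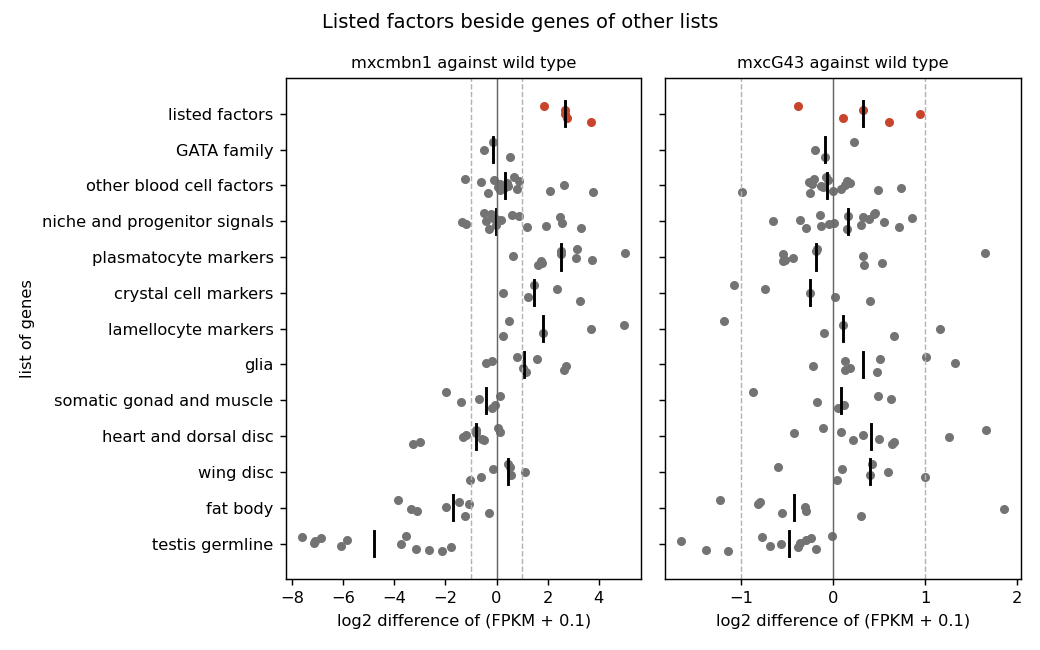
Log2 difference of FPKM plus 0.1 against wild type for the 5 listed factors past the minimum (top row, red) and for the genes of 12 other lists, in *mxcmbn1* (left) and *mxcG43* (right). Each point is a gene past the minimum, the black bar is the median of the list and dashed lines mark 2-fold. The factors, at a median of 2.69, sit beside the plasmatocyte markers, at 2.53, in *mxcmbn1*, while fat body and testis lie on the lower side.

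Other transcription factors known from blood cell development were mostly near the wild-type level. Of 16 in the list, 3 were more than 2-fold higher in *mxcmbn1* and 1 lower, with a median log2 difference of 0.33. Beside the 14.9% of all entries that were higher, 3 of 16 is not a result about the list. The higher ones were *Ets21C*, *pnt* and *ham*. *Ets21C*, an ETS factor of the stress response, had 0.838, 0.370 and 12.9 and passed the minimum only through *mxcmbn1*. The lower one was *hth*, a homeodomain factor, with 54.3, 46.8 and 23.3. *CtBP*, given above, had the highest level of the list summed over the libraries. In *mxcG43* none of the 16 passed 2-fold, and *Ets21C* came nearest, with a log2 difference of -0.996.

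Among 17 niche and progenitor signals, 5 were more than 2-fold higher in *mxcmbn1* and 2 lower, and *upd3*, 1 of the 5, passed the minimum only through *mxcmbn1*. The shares over all entries tested were 14.9% higher and 25.6% lower. *Pvf2*, a ligand gene of the receptor Pvr on blood cells, had the highest ratio, with an FPKM of 4.48, 3.64 and 45.9. *wg*, the Wingless signal, had the lowest, with 3.62, 5.35 and 1.35. *Ance*, the highest in level summed over the libraries, had 121, 149 and 118.

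The genes around each factor were read to see whether the factor moved with its neighbourhood. The shares to set beside each count are 14.9% of all entries higher in *mxcmbn1* and 25.6% lower. Within 50 kb of *srp*, 15 entries passed the minimum, of which *pnr* was more than 2-fold higher in *mxcmbn1* and *CG31088* lower. Their median log2 difference was 0.47, beside -0.06 over all entries tested. Near *pnr*, 1 of 10 entries was higher, *srp*, and 1 lower, *sxe2*, with a median of 0.61. The medians near *ush*, *zfh1* and *kn* were 0.39, 0.10 and -0.12. Near *kn*, 1 of 22 entries was higher, *Spred* at 2.21 times, and 3 were lower. Near *ush*, 5 of 22 were higher and 1 lower, but of the 5 only *nAcRbeta-21C* had an FPKM of at least 1 in each library. The higher ones included *Ets21C* at 15.4 times and *nAcRbeta-21C* at 23.8 times, which share 1 locus 4.57 kb from *ush*, so that reads could have been split between them. Near *zfh1*, 3 of 9 were higher and 1 lower. *CG11313* was at 15.2 times wild type and *Npc2h* at 6.84 times, both on the side of lower coordinates. *cindr*, on the other side, was at 2.39 times. *wts*, the closest of the 9 at 1.17 kb, was at 1.07 times and *CG1340* at 0.0166 times. *lz* lies 41.4 kb from *mxc* itself, with 13 entries between them. Of the 12 of these past the minimum, 3 were more than 2-fold lower in *mxcmbn1* and 1 was higher. Beside 25.6% of all entries lower and 14.9% higher, these counts are not a result about the interval. The lower ones were *CR17438*, *Erk7* and *CG17440*, and *Erk7* had an FPKM of 10.1, 6.79 and 0.165. The higher one was *c11.1*, next to *lz* at 1.53 kb and at 2.50 times wild type.

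**Figure D4:**
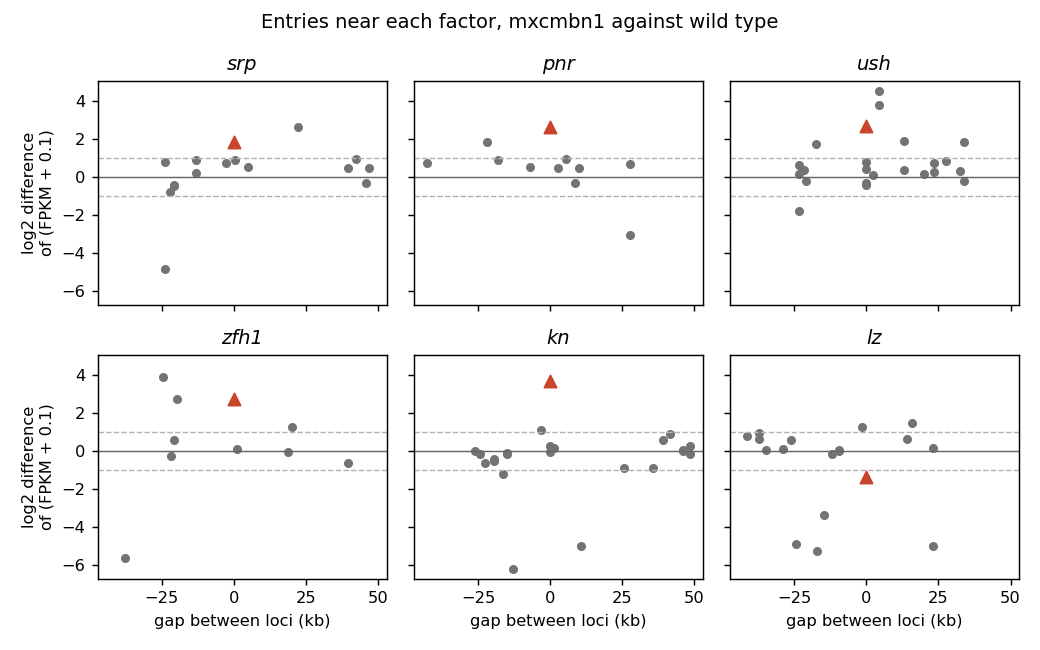
Log2 difference of FPKM plus 0.1 in *mxcmbn1* against wild type for entries within 50 kb of 6 factors (grey points) and for the factor itself (red triangle), against the gap between the loci in kb, negative on the side of lower coordinates. Dashed lines mark 2-fold. *srp* and *pnr* appear in each other's panels, and most other entries lie within 2-fold of wild type.

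The genes whose pattern came nearest to each factor were sought among 8958 or 8959 single-gene entries with an FPKM of at least 1 in all 3 libraries, by the distance in the pair of log2 differences of the mutants from wild type. *pnt* was 1 of the 2 nearest to *zfh1*, at a distance of 0.105, and *CG18557* the other, at 0.0988. *CG10031* and *CG3117* were nearest to *srp*, *CG16712* and *CG9451* to *pnr*, *fat-spondin* and *CG31454* to *ush*, and *CG15695* and *Naam* to *kn*. Within a distance of 0.2 there were 16 genes for *srp*, 13 for *pnr*, 7 for *ush*, 6 for *zfh1* and 1 for *kn*. The measure rests on 3 libraries and says only that these genes had like ratios.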

How the data were processed

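The authors checked 51-base single-end reads with FastQC 0.11.5, mapped them against BDGP5 by TopHat 2.0.6, and deposited the FPKM values that Cufflinks produced, 1 column per library. The gene annotation is not given in the sources used here. The members and gene lists were chosen with earlier results of these data known. The factors are named, as are the highest gene and the extremes of each list and genes tied by role to a factor. Neighbouring genes, and some genes that make up a small count, were named after their values were seen.

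Relative depth was found from the FPKM ratios of 1505 entries under 2 FPKM. Of these, 631 (*mxcG43*) and 563 (*mxcmbn1*) stood to wild type, once scaled, as a ratio of small whole numbers within a tolerance of 1e-04. Recovered reads were the smallest whole numbers that matched the levels within that tolerance, with up to 30 in the lowest library. Absolute depth was the median over 673 genes with 1 transcript in BDGP6, after 200 bases were taken from each transcript, and 66.0% of these genes lay within 5% of it. Reads behind a factor were estimated from its shortest BDGP6 transcript, which gives the smaller number. BDGP6 gave no coordinates. Older symbols were matched by hand. Starts are counted from 1. Steps were tested on simulated data. Alternatives covered pseudocount, minimum FPKM, scaling, fold and overlapping loci. The software was matplotlib 3.10.9, scipy 1.17.1, pandas 2.3.3 and numpy 2.4.6 under Python 3.11.15.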

Additional observations from a re-analysis of the deposited data

How the results depend on the processing

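The count of listed factors more than 2-fold from wild type in *mxcmbn1* was 5 and stayed between 4 and 6 under every alternative run, which were 3 other pseudocounts, 3 other minimum levels, 2 rescalings, thresholds of 1.5-fold and 4-fold, single loci only, and *gcm* counted through its joint entry. In each run with 6, 5 factors were higher and 1 was lower. The lower one was *lz* with no minimum, or the joint entry where that was counted. Counts of 4 were 4 of 4 with single loci only or the minimum in wild type, and 4 of 5 at 4-fold. The count against *mxcG43* had the same range, with *gcm2* in place of *lz*. At 4-fold, *srp* dropped out of the count against wild type and *ush* out of that against *mxcG43*. In *mxcG43* against wild type the count was 0, and it was 1 with no minimum (*gcm2*), 1 after rescaling by the upper quartile (*ush*) and 2 at 1.5-fold (*ush* and *kn*). The minimum in wild type and the joint entry were chosen after seeing the data. No value of a factor reversed. Of the values of single factors, 112 stayed inside the counting interval (for the joint entry, within 1.5-fold) and 8 moved, all of these with an added 1 in place of 0.1, which brought *kn* in *mxcmbn1* from 3.69 to 2.89 on the log2 scale. The wide interval of *gcm2* also held large shifts, from -1.59 to -3.29 in *mxcmbn1* against *mxcG43* with nothing added. No paired analysis was possible because there is 1 library per genotype. Depth limits *lz* and *gcm2*, and replicate error is unknown for every gene.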
